A study of Mus musculus with 2 samples.

Results

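Endothelial cells line the blood and lymph vessels of the lung, and the data describe 5729 of them among 18397 cells from whole lungs. They are the cells that the authors had labelled endothelial, and the label was given by hand to whole fine clusters from the average level of marker genes in each cluster. The endothelium held 2889 of the cells of the control diet (CD) library and 2840 of those of the high-fat diet (HFD) library, which is 32.9% and 29.6% of all cells. The lungs came from female BALB/c mice aged 20 weeks that had been kept for 16 weeks on one of the diets. Fat, from lard, supplied 13% of the energy of CD and 60% of that of HFD. Protein supplied 27% and 20%, and carbohydrate 60% and 20%. There was 1 library for each diet and the number of mice behind it is not given in the sources used here, so no test was possible. Shares are given with exact 95% intervals and medians with order-statistic intervals, and both cover counting error only. A diet effect cannot be told apart from a difference between animals or between preparations, nor can a change in cell number from a change in how many cells survived digestion.

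Most lung endothelial cells are capillary cells. General capillary cells maintain the vessel and can divide, whereas aerocytes are large, thin capillary cells that lie against the alveolar epithelium where gas is exchanged. Arterial, venous and lymphatic endothelium make up the rest. Endothelial cells are also the first cells to meet circulating lipids, since the capillary surface holds the lipase that releases fatty acids from lipoproteins, and they are the barrier that circulating cancer cells cross to reach the lung.

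A total of 11801757 unique molecular identifiers (UMIs, single captured transcripts) stood behind the endothelial cells in CD and 10729305 in HFD, which is 27.8% and 21.2% of all UMIs of the library. Endothelial cells therefore held a smaller part of the UMIs than of the cells in both libraries. Single cells ranged from 1000 to 38865 UMIs and from 373 to 7005 detected genes, and up to 19.5% of their UMIs were mitochondrial. Of 27 cell barcodes found in both libraries, 1 belonged to an endothelial cell in each of them, and 13 endothelial cells in all carried such a barcode. The values at hand hold nothing against which the diet label of a library could be checked.

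The gene table gives flags per gene and no level per cell, so the label could not be checked against marker levels. All 3 defining markers were among the 19278 listed genes. They were Pecam1 (ENSMUSG00000020717, chromosome 11, 106654217 to 106750628, minus strand in GRCm38), which encodes the junction protein CD31, Cdh5 (ENSMUSG00000031871, chromosome 8, 104101625 to 104144511, plus strand), which encodes VE-cadherin, and Cldn5 (ENSMUSG00000041378, chromosome 16, 18776847 to 18778262, plus strand), a tight junction claudin. None of these 3 carried the highly variable flag, which marks the 1000 genes that shaped the map of cells. These 1000 genes make up 5.26% of the 18995 genes that are not mitochondrial, ribosomal or cell cycle genes. Per the study's methods, the flag also required a minimum expression level, which could not be applied here. The 5.26% is therefore a low reference for lists of expressed genes.

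The flag was then read in lists of endothelial genes grouped by role. In the list of 16 genes that mark endothelium in general, only Kdr, the main receptor for vascular endothelial growth factor, and Sox17, a transcription factor of arterial endothelium, were flagged. Tie1, Tek, Flt1, Eng, Esam, Egfl7, Emcn, Ramp2, Cd93, Erg and Sox18 were not, nor were the defining markers. In each list of a single vessel type, 5 to 7 of 8 genes were flagged. Among 8 arterial genes 7 carried the flag, including the gap junction genes Gja4 and Gja5, the ligand Efnb2 and the kinase Bmx, and Dkk2 did not. For aerocytes 6 of 8 genes were flagged, including the carbonic anhydrase Car4, the endothelin receptor Ednrb and the peptide Apln. For general capillary cells 5 of 8 were flagged, including Gpihbp1, the anchor of lipoprotein lipase, and Plvap, a protein of the diaphragms of endothelial openings, and Aplnr, Cd93 and Kit were not. For lymphatic endothelium 6 of 8 were flagged, including Lyve1, Mmrn1, Reln and the chemokine Ccl21a, while Prox1 and Flt4 were not. For venous endothelium 5 of 8 were flagged, including Vwf, Nr2f2 and Slc6a2.

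Genes by which endothelium handles fatty acids were flagged in 5 of 12 cases. These were Gpihbp1, the lipases Lpl and Lipg, and the fatty acid binding proteins Fabp4 and Fabp5. The fatty acid transporter Cd36, the transport proteins Slc27a3 and Slc27a4, the transcription factors Meox2, Tcf15 and Pparg, and the lipase inhibitor Angptl4 were not flagged. Of 12 genes of adhesion and vessel signalling, 6 were flagged. These were the leukocyte adhesion genes Sele, Selp, Icam1 and Vcam1, the vasoconstrictor peptide gene Edn1 and the chemokine gene Cxcl12. The adhesion gene Icam2 was not flagged, nor were Nos3, Thbd, Tfpi, Bmp6 and Il6st. Across the lists, 37 of 74 different genes carried the flag, and none was a cell cycle gene. Of markers of other lung cells, all 4 immune, 3 mural and 2 fibroblast genes and 2 of 3 epithelial genes were flagged. The flag was set over all cell types of both diets, so it gives neither a level in endothelium nor a direction between diets, and several flagged genes such as Lpl, Fabp5 and Pdpn are also used by other lung cells.

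**Figure D1:**
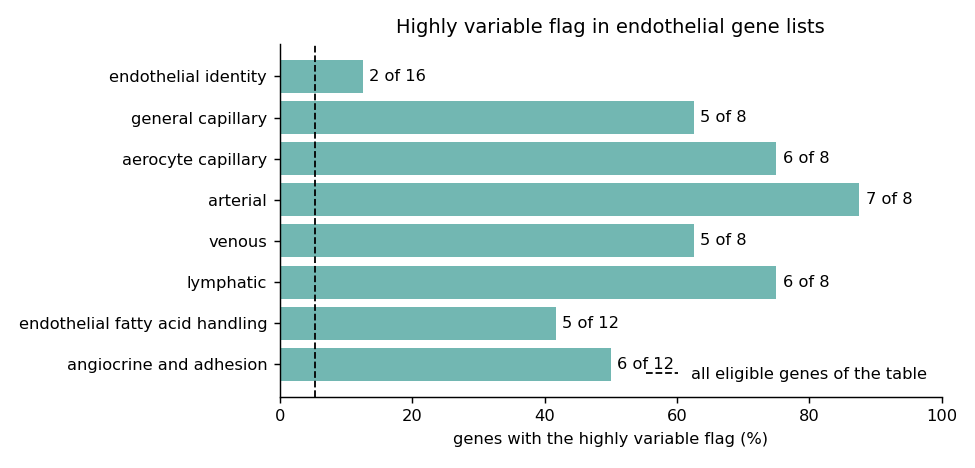
Percent of the genes in each endothelial list that carry the highly variable flag, with the number of genes beside each bar. The dashed line is the percent over all genes, of any level, that are not mitochondrial, ribosomal or cell cycle genes. The general endothelial list has 2 of 16 genes flagged, and the arterial list 7 of 8.

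Next, the make-up of the endothelium was compared between diets. The endothelium was divided into 11 fine clusters, more than any other cell type, for which the highest number was 6. It also had the most cells, and numbers of clusters were not compared at equal numbers of cells. No cluster was given a vessel type by the authors, and without marker levels none is given here, so that clusters are named by number. The 5 largest held 71.6% of the endothelial cells. In CD the largest was cluster 2 and in HFD it was cluster 1.

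Clusters 1 and 7 made up more of the endothelium in HFD, although the shares of cluster 1 overlapped among cells of at least 2000 UMIs. Cluster 1 held 410 endothelial cells of CD (14.2%, 12.9 to 15.5) and 580 of HFD (20.4%, 19.0 to 22.0), so that its share in HFD was 1.44 times that in CD (1.27 to 1.64). Over cells of at least 3000 UMIs this ratio was 0.917 (0.567 to 1.48). Cluster 7 held 308 cells of CD (10.7%, 9.56 to 11.8) and 454 of HFD (16.0%, 14.7 to 17.4), which is 5.32 percentage points more, with a ratio between 1.29 and 1.74. Both clusters together were 24.9% of the CD and 36.4% of the HFD endothelium, given without intervals since they were joined for their direction.

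Clusters 2, 20 and 30 made up less of the endothelium in HFD, although the shares of cluster 20 overlapped among cells of at least 2000 UMIs. The shares of cluster 20 also overlapped with cluster 1, 7, 24 or 25 left out of the total. Its ratio without cluster 1 was 0.808 (0.657 to 0.992). Cluster 2 held 569 cells of CD (19.7%, 18.3 to 21.2) and 418 of HFD (14.7%, 13.4 to 16.1), with a ratio of 0.747 (0.657 to 0.849). Cluster 20 held 224 cells of CD (7.75%, 6.80 to 8.79) and 165 of HFD (5.81%, 4.98 to 6.73), with a ratio of 0.749 (0.609 to 0.920). Cluster 30 had the lowest ratio of the 11, at 0.536 (0.420 to 0.682), from 201 cells of CD (6.96%, 6.06 to 7.95) and 106 of HFD (3.73%, 3.07 to 4.50). The 3 clusters together were 34.4% of the CD and 24.3% of the HFD endothelium, joined in the same way.

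The other 6 clusters had overlapping intervals. Clusters 24, 25 and 36 had higher shares in HFD, with ratios of 1.21, 1.26 and 1.09, and clusters 5, 15 and 33 had lower shares, with ratios of 0.841, 0.898 and 0.829. For cluster 25 (1.01 to 1.57) and cluster 5 (0.731 to 0.968) the interval of the ratio nevertheless lay on one side of 1. Cluster 36 was the smallest, with 43 CD and 46 HFD cells, and its ratio could lie anywhere from 0.702 to 1.69.

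Intervals thus did not overlap for 5 of 11 endothelial clusters (45.5%) with cells of all depths. The count was 3 with at least 2000 or at least 3000 UMIs per cell, and also 3 with cluster 7 left out of the total. The reference was all 36 fine clusters of cell types with at least 2 clusters, each counted as a share of its own type. Among these the intervals did not overlap for 27.8%, counting cells of all depths. In the 7 other types they did not overlap for 5 of 25 clusters, of which 3 were among the 5 fibroblast clusters. Endothelium has the most cells and hence narrow intervals, so these percentages are not comparable as effect sizes. In percentage points, 14.2% of the endothelium would have to change cluster to turn one make-up into the other. The same quantity was 10.7% in fibroblasts, 9.24% in pericytes, the contractile cells that wrap capillaries, and 4.33% in T cells. This quantity also depends on how many clusters and cells a type has, and these differences between types were not tested.

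**Figure D2:**
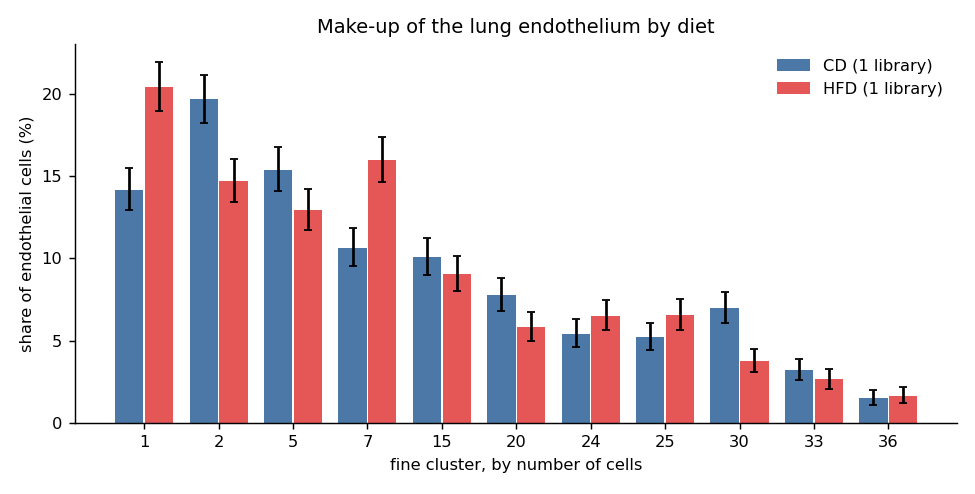
Share of the endothelial cells of each library in the 11 fine clusters, in percent, for CD (blue) and HFD (red). Bars show the share and whiskers its exact 95% interval, and clusters 1 and 7 stand higher in HFD, and clusters 2, 20 and 30 stand lower, with whiskers that do not overlap when cells of all depths are counted.

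The lower share of endothelium among all HFD cells was the sum of opposite differences. As shares of all cells of the library, 7 clusters were lower in HFD and together dropped by 6.27 percentage points, and 4 clusters were higher and together added 2.98 points, which gave a net difference of -3.28 points. Cluster 2 alone accounted for -2.12 points, cluster 5 for -1.23 and cluster 30 for -1.18. Clusters 1 and 7 added 1.38 and 1.22 points. The direction of a cluster was the same with either total in 10 of 11 clusters, and cluster 36 was the exception, with a ratio of 0.979 over all cells.

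The clusters also differed in the amount of RNA captured per cell. Clusters 30 and 33 were the richest, with medians over both diets of 7208 UMIs (6317 to 7959) and 7454 UMIs (6542 to 8516). Cluster 1 was the poorest, with 1519 UMIs (1466 to 1577), followed by cluster 15 with 2119 (1909 to 2368). The remaining 7 lay between 3133 UMIs in cluster 5 and 3759 in cluster 2. Detected genes followed the same order at both ends, from a median of 886 in cluster 1 to 2732 in cluster 30 and 2855 in cluster 33. Cells with under 2000 UMIs were 70.5% of cluster 1 and 4.79% of cluster 33, and cluster 1 supplied 41.5% of all such endothelial cells.

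The clusters with different shares lay at various depths. Cluster 1, with the fewest UMIs per cell, had the higher share in HFD, and cluster 30, with the second highest median, had the lower share. The other clusters at the extremes, 33 with the most UMIs and 15 with the second fewest, both had lower shares in HFD with overlapping intervals. Cluster 7, with a median of 3184.5 UMIs over both diets, had the higher share in HFD. Clusters 20, at 3389, and 2, at 3759, had the lower share. Whether depth has a part in the shift between clusters was not tested, but the shares were counted again among deeper cells. With at least 3000 UMIs per cell, cluster 7 had a ratio of 1.74 (1.43 to 2.13), cluster 2 one of 0.821 (0.702 to 0.960), and cluster 30 one of 0.577 (0.439 to 0.753). Cluster 20 had a ratio of 0.733 (0.552 to 0.968), while the intervals of its shares overlapped. Cluster 1 kept only 41 of its CD cells and 35 of its HFD cells, and its ratio was 0.917. With at least 2000 UMIs the ratio of cluster 1 was 1.32 (1.04 to 1.68), and the intervals of its shares overlapped.

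Over the endothelium as a whole, the median CD cell had 3062 UMIs (2952 to 3139) and 1526 genes (1499 to 1561), and the median HFD cell had 2905 UMIs (2809 to 3009) and 1513.5 genes (1478 to 1550). These intervals overlapped, whereas the shares of very shallow and very deep cells did not. Cells under 2000 UMIs were 26.9% of CD (25.3 to 28.5) and 31.8% of HFD (30.1 to 33.6), and cells with 8000 or more were 10.5% of CD (9.36 to 11.6) and 7.89% of HFD (6.92 to 8.94). In between, the intervals overlapped. From 2000 to under 4000 UMIs the shares were 39.3% and 36.2%, a difference of -3.16 points, and from 4000 to under 8000 UMIs they were 23.4% and 24.1%, a difference of 0.755 points.

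The medians were also compared at the same make-up. When HFD cells were weighted so that their clusters had the shares of CD, the HFD median was 3138 UMIs and 1590 genes, and 28.3% of the cells had under 2000 UMIs. The ratio of median UMIs was then 1.02 in place of 0.949. Of the 302 CD cells with 8000 or more UMIs, 89 were in cluster 30, compared to 46 of 224 in HFD. The percent of such cells within cluster 30 was 44.3% for CD (37.3 to 51.4) against 43.4% for HFD (33.8 to 53.4). The 1% of endothelial cells with the highest UMI counts was taken in each library by itself, which gave 29 cells from 18467 UMIs upwards in CD and 29 from 16176 UMIs upwards in HFD. Cluster 30 held 15 of these in CD and 11 in HFD, and cluster 33 held 8 and 9. Droplets with more than 1 cell can also carry many UMIs, and their part in these clusters was not tested.

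Within clusters, the HFD median of UMIs exceeded that of CD in 6 and fell short of it in 5, with ratios from 0.735 to 1.12. Medians within single clusters of other cell types were not compared. Counts of endothelial clusters with differing UMIs, genes or mitochondrial percent therefore have no reference. Cluster 15 was the only one of the 11 in which the intervals of UMIs did not overlap, at 2393 for CD (2115 to 2650) against 1758 for HFD (1620 to 2105). Its median number of genes was 1287 for CD (1151 to 1378) against 1001 for HFD (923 to 1145). Its cells with under 2000 UMIs were 42.6% of CD (36.9 to 48.5) and 54.5% of HFD (48.2 to 60.7). At the same time its cells with 8000 or more UMIs were 4.47% of CD (2.40 to 7.52) and 8.56% of HFD (5.44 to 12.7), with overlapping intervals. Cluster 5 had the highest ratio, with 2960 UMIs for CD (2784 to 3139) against 3313 for HFD (3139 to 3506), and the intervals of its genes did not overlap, at 1510 for CD (1451 to 1573) against 1696.5 for HFD (1607 to 1758).

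**Figure D3:**
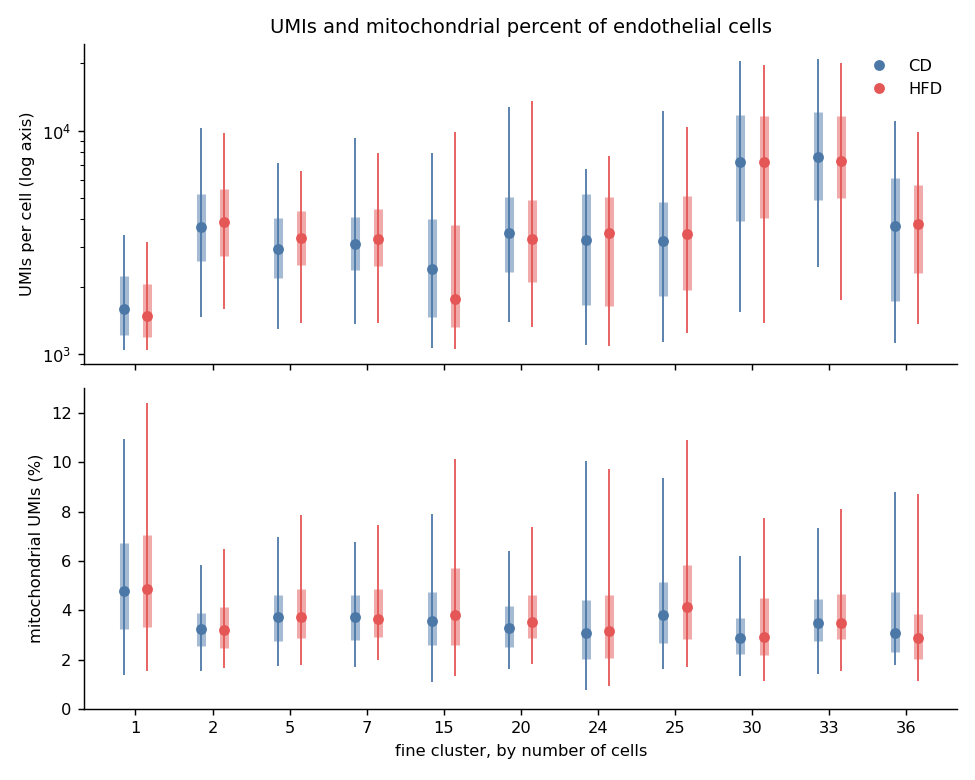
UMIs per cell on a log axis (top) and percent of mitochondrial UMIs (bottom) in each endothelial cluster of CD (blue) and HFD (red). Points are medians over cells, thick lines the middle 50% of the cells and thin lines the 5th to the 95th percentile; clusters 30 and 33 lie highest in UMIs, and cluster 1 lies lowest in UMIs and highest in mitochondrial percent.

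The mitochondrial percent, which covers transcripts of the mitochondrial genome and rises in leaking or stressed cells as well as in cells with many mitochondria, was higher in HFD endothelium. Its median was 3.52% for CD (3.44 to 3.59) against 3.71% for HFD (3.64 to 3.81). Fibroblasts, at 3.03% for CD against 3.41% for HFD, and pericytes, at 2.72% against 3.03%, also had higher HFD medians whose intervals were apart. The ratio of HFD to CD was 1.06 in endothelium, 1.13 in fibroblasts and 1.11 in pericytes. In endothelium, above 10% lay 78 CD cells (2.70%, 2.14 to 3.36) and 125 HFD cells (4.40%, 3.68 to 5.22), and cells from over 5 to 10% were 18.5% of CD (17.1 to 19.9) and 22.7% of HFD (21.2 to 24.3). By cluster, the median over both diets ran from 2.89% in cluster 30 (2.76 to 3.09) to 4.83% in cluster 1 (4.63 to 5.01), and cluster 25 was the second highest at 3.95% (3.74 to 4.23). In HFD alone the lowest was cluster 36, at 2.87% (2.30 to 3.42), with cluster 30 at 2.90% (2.55 to 3.36). Cluster 1 held 92 of the 203 cells above 10%.

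No endothelial cluster had non-overlapping mitochondrial medians between diets. The medians were higher in HFD in 7 clusters and lower in 4, with ratios from 0.936 in cluster 36 to 1.09 in cluster 20. Weighted to the clusters of CD, the HFD median was 3.61%, and without cluster 1 the ratio was 1.03 (0.990 to 1.07). The medians were then taken by depth. Among cells with under 2000 UMIs the median was 4.10% for CD (3.97 to 4.27) against 4.64% for HFD (4.40 to 4.88), whereas the intervals overlapped in the deeper classes. From 2000 to under 4000 UMIs the medians were 3.41% and 3.53%, from 4000 to under 8000 UMIs they were 3.44% and 3.52%, and with 8000 or more UMIs the median was 3.30% in both libraries. The ratio of HFD to CD was 1.03 (0.988 to 1.07) over cells of at least 2000 UMIs, with at least 3000 UMIs 1.00 (0.964 to 1.05), and with at most 10% mitochondrial UMIs 1.05 (0.999 to 1.09), so that each of these intervals held 1.

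Detected genes were then compared between cells of like depth, in 13 bins of 0.1 log10 units of UMIs with at least 20 endothelial cells of each diet. The median number of genes in HFD was between 0.982 and 1.02 times that in CD, and it was higher in 8 bins. The weighted mean of the log2 ratio was 0.01, with an SD over bins of 0.01. From 1000 to 1259 UMIs the median was 687 genes in CD and 688 in HFD, and from 10000 to 12589 UMIs it was 3648.5 and 3638. Within single clusters, HFD was higher in 6 of 6 bins in cluster 1, 7 of 8 in cluster 2 and 6 of 7 in cluster 5. In clusters 7, 15, 20 and 24 it was higher in 3 of 6, 2 of 4, 2 of 4 and 1 of 2. The mean ratio of these clusters ran from 0.989 in cluster 24 to 1.02 in cluster 5. Clusters of other cell types were not compared in this way. In the window from 2500 to 3500 UMIs, endothelial cells had 1499.5 genes for CD (1479 to 1512, 586 cells) against 1539 for HFD (1522 to 1557, 554 cells), and these intervals did not overlap. Their mitochondrial medians in this window were 3.39% (3.29 to 3.51) and 3.40% (3.30 to 3.66). In the same window pericytes had 1552 and 1552.5 genes, fibroblasts 1462 and 1411.5, and T cells 1076.5 (1059 to 1094) and 1112.5 (1096 to 1129), so that the intervals did not overlap in T cells either.

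Within that window the endothelial clusters were close to each other, with medians from 1429.5 genes in cluster 36 (1347 to 1590, 10 cells) to 1583 in cluster 24 (1514 to 1643, 55 cells). Cluster 1 had 1473.5 genes (1441 to 1517) and cluster 30 had 1498.5 (1395 to 1613, 22 cells). The mitochondrial percent still differed at this depth, with 4.17% in cluster 1 (3.85 to 4.89), 4.27% in cluster 25 (3.51 to 4.71), 3.07% in cluster 2 (2.93 to 3.30) and 2.07% in cluster 30 (1.40 to 3.28).

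**Figure D4:**
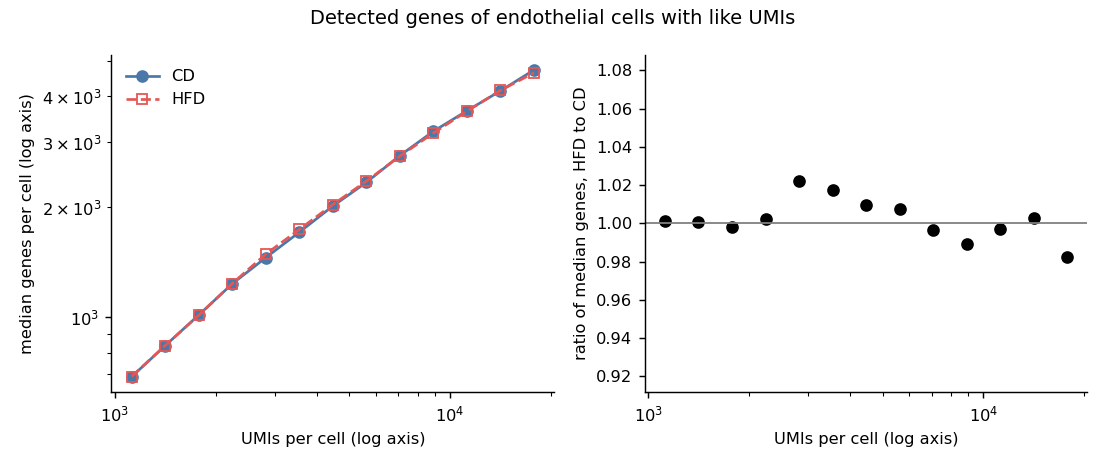
Median detected genes of endothelial cells in 13 bins of UMIs (left, both axes log, CD blue circles, HFD red squares) and the ratio of HFD to CD in each bin (right). With the cells of all clusters pooled, the curves lie on each other, and the ratio stays between 0.982 and 1.02.

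The UMAP plane, a flat map in which cells of like expression lie near each other, has no unit, and the clusters were drawn in it, so their separation there follows from how they were made. Endothelial cells formed a territory of their own. None of the 15 nearest neighbours of any endothelial cell carried another label, and the closest cell of another type, a dendritic cell near cluster 33, lay 0.202 units away, compared to a median distance of 0.00156 between neighbouring endothelial cells. When each cell was joined to its 15 nearest endothelial cells, 5640 cells formed 1 connected piece and the 89 cells of cluster 36 formed a piece of their own. Cluster 24 touched only cluster 30, and cluster 33 touched clusters 15 and 25. On average 97.7% of the neighbours of a cell were in its own cluster, from 94.6% in cluster 20 to 100% in cluster 36.

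The diets were spread unevenly over this territory. The median position along the first axis was 1.15 for CD (1.14 to 1.16) against 1.10 for HFD (1.10 to 1.11), towards the side where clusters 1 and 7 lie (0.993 and 1.06). HFD cells were 49.6% of the endothelium. They were 46.4% of the neighbours of CD cells and 53.6% of the neighbours of HFD cells. Within single clusters the latter was higher than the former in 10 of 11. The difference was 18.9 percentage points in cluster 36, which has only 89 cells, and 0.758 to 7.21 points in the others of these. In cluster 20 it was -1.19 points. Neighbours were not compared in this way within clusters of other cell types, so the count of clusters has no reference.

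In 180 square tiles of 0.02 units with at least 10 endothelial cells, which held 5328 cells, the HFD percent ranged from 12.5% to 100%. Its interval lay above the overall 49.6% in 19 tiles and below it in 15. Tiles of other cell types were not counted, so these counts have no reference. They also carry the HFD percent of the cluster a tile lies in, which ran from 34.5% in cluster 30 to 59.6% in cluster 7. Several patches with many cells of 1 diet were picked with their values in view, so they are given as a description and without intervals. In 4 adjoining tiles, mostly of cluster 7, 147 of 187 cells were from HFD (78.6%), and outside the named patches cluster 7 had 54.2% HFD cells. In 3 tiles along the left edge of cluster 1, 69 of 84 cells were from HFD (82.1%), with a median of 1178 UMIs and 5.75% mitochondrial UMIs, and in the next tile of that edge 8 of 14 were. In 1 tile near the top of cluster 1, 16 of 16 cells were from HFD, with a median of 1202.5 UMIs but 2.09% mitochondrial UMIs, and in the tile beside it 14 of 22 were. Outside the named patches 55.6% of the cells of cluster 1 were from HFD. In cluster 36, 14 of 15 cells of 1 tile were from HFD, and the remaining 74 cells were 43.2% HFD.

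Cluster 30 held patches of both kinds. In 1 tile 10 of 11 cells were from HFD, with a median of 3302 UMIs, whereas in another 25 of 31 were from CD, with a median of 15770 UMIs and 4288 genes. Outside these tiles 90 of 265 cells of cluster 30 were from HFD. A patch rich in CD cells was also found in cluster 5, with 34 of 41 cells from CD and a median of 3450 UMIs. Whether levels of genes differ between these patches and the cells around them was not analysed here.

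**Figure D5:**
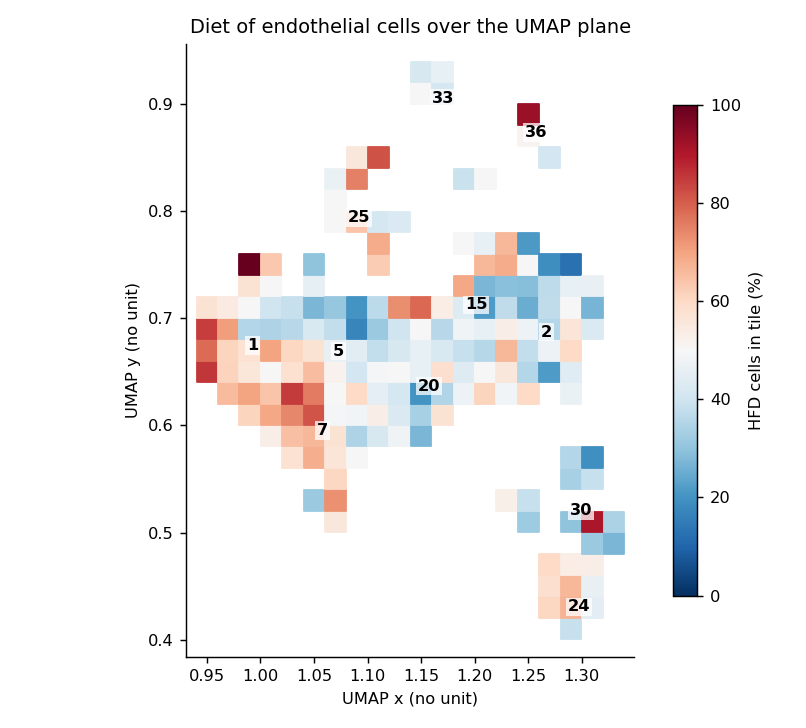
Percent of HFD cells among the endothelial cells in square tiles of the UMAP plane (0.02 units wide, at least 10 cells each), from blue (CD) through white to red (HFD), with the cluster numbers at their median positions. Red tiles are found for example in clusters 1 and 7 on the left and in clusters 15, 24, 25 and 36. Blue tiles are found for example in clusters 2, 5, 15, 20 and 30. Tiles of both colours occur within clusters such as 1, 15 and 30.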

How the data were processed

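Perfused lungs were minced, digested with enzymes, filtered, freed of erythrocytes and loaded on a droplet system. Its kit was a 3' kit per the labels and a 5' kit per the study's methods, which was not settled. Per the study's methods and the submitters' processing notes, the authors aligned reads with Cell Ranger to mm10 (GRCm38.p6), merged both libraries in Seurat (version 4.1.0), removed cells by mitochondrial percent, UMIs and genes, and clustered all cells together in the UMAP plane. No removal of doublets is stated, and none was done here. The methods give 500 UMIs as the minimum, whereas the lowest value in the table is 1000.

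The deposited table of cells holds counts of UMIs and of detected genes that are not normalised, the percent of UMIs from mitochondrial genes, UMAP coordinates, the fine cluster and the cell type. The deposited table of genes holds other values, namely yes-or-no flags. Levels of single genes were not analysed here.

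Cells labelled endothelial were assigned to CD or HFD by their library name. Shares were given Clopper-Pearson 95% intervals, ratios of shares a binomial interval that takes the sum of CD and HFD cells as given, and medians order-statistic intervals, with outer bounds for their ratios. Make-up was called different where the intervals of CD and HFD did not overlap. Clusters meeting this were described in full, with the 2 largest, and genes were named by list. Medians at equal make-up weighted HFD cells to the clusters of CD. Gene positions came from GENCODE M21, on the same build. Calculations used scipy 1.17.1, numpy 2.4.6 and pandas 2.3.3 under Python 3.11.15, with matplotlib 3.10.9 for plots, and were tested on simulated data. The alternatives were limits on mitochondrial percent, UMIs and genes, other totals, bins and neighbours, and the weighting. The members and gene lists were chosen with earlier results of these data known.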

Additional observations from a re-analysis of the deposited data

How the results depend on the processing

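Of 218 values over these alternatives, 210 stayed within the spread of the reported value (for counts of clusters, within 1.5 times it), 6 moved beyond it and 2 with a reported interval on one side of 1 reversed. Of the 207 ratios of shares and medians among them, 8 lay on the other side of 1. Besides these reversals and the weighted medians of UMIs and genes, they were cluster 36 over all cells (0.979), the median UMIs with at least 2000 UMIs (1.01) and the median genes with at least 2000 and at least 3000 UMIs (1.01 and 1.00), each with a reported interval that held 1. The 5 clusters with intervals that did not overlap became 3 (clusters 2, 7 and 30) with at least 2000 or at least 3000 UMIs per cell, 6 with all cells of the library as the total, and 5 in the other 4 settings. Cluster 20, among those lost, kept a ratio of 0.751 (0.595 to 0.946) and 0.733 (0.552 to 0.968) at these UMI limits. Leaving each cluster out of the total in turn gave 3 to 6 such clusters, the 3 (clusters 1, 2 and 30) without cluster 7 and the 6 without cluster 15. All 110 ratios of single clusters stayed within their spread. However, leaving a cluster out only multiplies all other ratios by a common factor, which could hardly move them beyond it. These 110 values are part of the 210 and add little to that count. With at least 3000 UMIs, the ratio reversed in cluster 1 to 0.917 (0.567 to 1.48) and in cluster 5 to 1.08 (0.890 to 1.31), it moved to 1.74 in cluster 7, and the ratio of mitochondrial medians moved from 1.06 to 1.00 (0.964 to 1.05). Fewer cells remain at that limit, 1479 in CD and 1377 in HFD, and the cause of the changes was not tested. Weighting to the CD clusters moved the ratio of median UMIs to 1.02 and that of genes to 1.04. The difference in HFD neighbours between the libraries was 7.16 points, 5.80 with 50 neighbours and 6.50 with at least 2000 UMIs. The mean log2 ratio of genes at matched UMIs was 0.01, and 0.02 with bins of 0.05. Leaving out cells with a shared barcode, cluster 15 for UMIs and cluster 1 for mitochondrial percent were alternatives chosen after seeing the data. No paired analysis was possible because there was a single library for each diet. Cluster 36, with 89 cells, had the widest interval of the ratio.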
